A study of Homo sapiens with 9 samples.

Results

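The genes described here are 10 genes of serine, glycine and asparagine synthesis and of the stress response that runs through the transcription factor ATF4. They are ATF4 itself; the enzyme genes PHGDH, PSAT1, PSPH, SHMT2 and ASNS; and the stress genes DDIT3, TRIB3, SESN2 and DDIT4. They were chosen by name, as the rows of the count table whose identifier carries that symbol in GENCODE release 29. All 10 were found among the 26186 genes of the table, and all 10 were among the 16235 genes tested after the filter on low counts. The study measured polyadenylated RNA of MCF10A cells, a human mammary epithelial line that does not form tumours, after suppression of CHAF1B, a subunit of the histone chaperone complex CAF-1. The 9 libraries were 3 infected with a hairpin that targets green fluorescent protein and served as controls (shGFP), 3 with a first hairpin against CHAF1B (shCHAF1B-1) and 3 with a second (shCHAF1B-2). Every hairpin was carried by the pLKO.1 vector. All cells, controls included, were infected with lentivirus, put under 2 µg/mL puromycin 24 hours later, and harvested on day 3 after infection. They grew in medium with 5% horse serum, insulin, epidermal growth factor, cholera toxin and hydrocortisone. The labels do not say that libraries of a group came from separate cultures, so the p-values measure the spread between these libraries, which may be technical.

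ATF4 is a bZIP transcription factor whose messenger RNA is held back from translation by upstream open reading frames until the initiation factor eIF2 is phosphorylated, as happens when amino acids run short or proteins misfold in the endoplasmic reticulum. Its protein then pairs with C/EBP factors and binds composite C/EBP-ATF elements near genes for amino acid synthesis and uptake. In mammary epithelium and breast cancer the serine pathway is best known from PHGDH, which some breast tumours carry in extra copies.

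The element that ATF4 and its C/EBP partners bind has the core letters TGATGNAA. These were searched on both strands in windows from 250 bases before to 50 after each gene's start (RefSeq, GRCh38.p14). Of the 10 genes, 8 had such a window. ASNS held the core, while ATF4, PHGDH, PSAT1, DDIT3, DDIT4, TRIB3 and SESN2 did not hold these letters in any of their windows. PSPH and SHMT2 had no entry. Among tested genes with a window, 2.86% held the core. In a list of 32 other ATF4 targets and amino acid response genes, described further on, 10 of the 24 genes with a window held it. The stretches below show the core (capitals) in ASNS and in 9 of those genes. They show where these letters stand and can be set beside how each gene moved. They are written on the strand of the gene. TTGCATCA and TTACATCA are the core read on the opposite strand.
ASNS (chr7:97872458-97872487, minus strand): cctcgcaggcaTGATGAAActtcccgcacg
CEBPG (chr19:33374060-33374089, plus strand): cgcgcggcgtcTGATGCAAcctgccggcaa
CHAC1 (chr15:40953251-40953280, plus strand): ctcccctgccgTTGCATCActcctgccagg
SLC1A4 (chr2:64989381-64989410, plus strand): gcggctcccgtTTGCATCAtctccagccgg
JDP2 (chr14:75427995-75428024, plus strand): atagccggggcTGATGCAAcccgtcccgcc
MTHFD1L (chr6:150866346-150866375, plus strand): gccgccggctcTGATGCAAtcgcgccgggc
SLC3A2 (chr11:62881719-62881748, plus strand): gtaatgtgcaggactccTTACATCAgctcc
ATF3 (chr1:212565205-212565234, plus strand): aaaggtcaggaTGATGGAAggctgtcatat
SLC1A5 (chr19:46784893-46784922, minus strand): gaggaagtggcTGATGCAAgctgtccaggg
SLC7A1 (chr13:29595663-29595692, minus strand): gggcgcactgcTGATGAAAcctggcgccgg
The remaining gene of the 10, FGF21, was not analysed here. A match is a description of these letters, not evidence of binding. The lack of a match in these windows does not show that a gene lacks the element.

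Facts of the whole series that bear on these genes are as follows. The libraries held between 24339914 and 31819468 counts. CHAF1B stood at 35.2 to 41.0 CPM (the usual depth-scaled count, with TMM library sizes) in the shGFP libraries and at 2.56 to 3.89 CPM in the 6 knockdown libraries. Of the 14 markers of basal mammary epithelium listed, all 14 had at least 3 counts in every library. Their summed level was higher with the knockdown, at 15032 to 16225 CPM in shGFP and 18549 to 20360 CPM in the knockdown libraries. In the mean of both hairpins 7 of them rose, 5 fell and 2 did not pass. Among all tested genes 29.2% were called up and 27.7% down in that comparison. One library, shCHAF1B-1 replicate 3, stood apart through transcripts of B lymphocytes: the summed level of the B lymphocyte list was 249 CPM there and 1.68 to 2.81 CPM in shGFP, and MS4A1 had 2664 counts there against 3 to 14 in each other library. Of the 12 genes in that list, 11 were analysed. Their counts were higher there than in each other library for 10 of them, while CR2 had 9 counts there against 29 to 48 in shGFP and 12 to 15 in the other knockdown libraries. The calls below are therefore also given without that library: 2 of the 10 genes were then called up and 5 down with shCHAF1B-1 (2 and 7 with it), and 2 up and 7 down for the mean of both hairpins, as with it. Summed levels of 3 other marker lists were higher with the knockdown. A single gene made up most of the difference in the endothelial and myeloid lists, while genes of the fibroblast list moved both ways. The endothelial sum was 3.94 to 4.56 CPM in shGFP against 10.6 to 12.6 CPM, where PECAM1 went from 2.36 ± 0.543 to 8.93 ± 0.876 and 8.99 ± 0.901 CPM (SD, n = 3) and KDR did not pass. The myeloid sum was 29.1 to 32.9 against 41.2 to 45.6 CPM, where CD14 went from 13.4 ± 1.04 to 24.7 ± 2.26 and 24.1 ± 1.42 CPM and CSF1R did not pass. The fibroblast sum was 43.6 to 46.9 against 55.0 to 58.7 CPM, where FAP and COL1A1 rose while DCN fell from 9.38 ± 0.297 to 1.65 ± 0.239 and 1.94 ± 0.195 CPM. The defining genes CDH5, LYZ, AIF1, TYROBP, FCGR3A, COL1A2 and COL3A1 were not analysed here. The part of these in the results was not tested.

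In shGFP cells the 10 genes spanned a wide range of levels. On a per-length scale (CPM per kilobase of merged exons) the order was DDIT4 at 153 ± 22.4, ATF4 at 120 ± 4.57, PSAT1 at 76.1 ± 1.67, SHMT2 at 45.4 ± 2.74, TRIB3 at 29.4 ± 2.02, PSPH at 12.4 ± 0.236, SESN2 at 12.4 ± 0.567, PHGDH at 4.52 ± 0.286, DDIT3 at 2.41 ± 0.213 and ASNS at 0.360 ± 0.00431 (SD, n = 3). PSPH and SESN2 were the only neighbours in this order whose shGFP libraries overlapped. The order depends on the exon length, which for PHGDH is 9217 merged bases beside 1771 coding bases. In CPM, PHGDH stood at 41.6 ± 2.64 in shGFP, PSPH at 34.3 ± 0.652 and SESN2 at 42.7 ± 1.96 (SD, n = 3). The low place of ASNS has to be read with its gene model. Of its coding bases, 96.1% lie under exons of a read-through gene on the same strand, AC079781.5, which has its own row of 3 to 20 counts per library. How the authors' counting assigned reads that fall in both genes is not given in the sources used here, so the ASNS values may rest on part of its reads. ASNS also has annotated pseudogenes, which were not analysed here. DDIT3 shares 33.5% of its coding bases with other genes, among them MARS on the opposite strand, and DDIT4 shares 38.9% with the antisense gene DDIT4-AS1. The kit does not mark strand, so such reads cannot be told apart. ATF4, PHGDH, PSAT1, PSPH, TRIB3 and SESN2 share 0 exon bases with another gene, although ATF4, PSAT1 and PSPH have annotated pseudogenes.

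With either CHAF1B hairpin 7 of the 10 genes fell, 2 rose and ATF4 did not pass the test. The 4 enzymes from the serine pathway, ASNS, SESN2 and DDIT4 were lower, while DDIT3 and TRIB3 were higher. A gene was called at an adjusted p under 0.05 (edgeR quasi-likelihood test, Benjamini-Hochberg over all 16235 genes). These counts stand against a background in which many genes moved: 53.2% of tested genes passed with shCHAF1B-1 (27.9% up and 25.2% down) and 51.3% with shCHAF1B-2 (26.7% up and 24.6% down). For the mean of both hairpins the background was 56.9% (29.2% up and 27.7% down). The median log2 fold change of the 10 genes was -0.34 with shCHAF1B-1 and -0.37 with shCHAF1B-2, beside -0.0025 and -0.014 over all tested genes. The median size of change over all genes, regardless of sign, was 0.30 and 0.29. All 6 knockdown libraries lay below all 3 shGFP libraries for 5 of the 10 genes and above them for 2, so 7 of the 10 did not overlap, while 22.7% of tested genes lay below, 25.8% above and 48.6% either way. Both comparisons use the same shGFP libraries, so their shared directions are not independent. In bulk RNA, fewer cells that make a transcript and less of it per cell cannot be told apart.

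**Figure D1:**
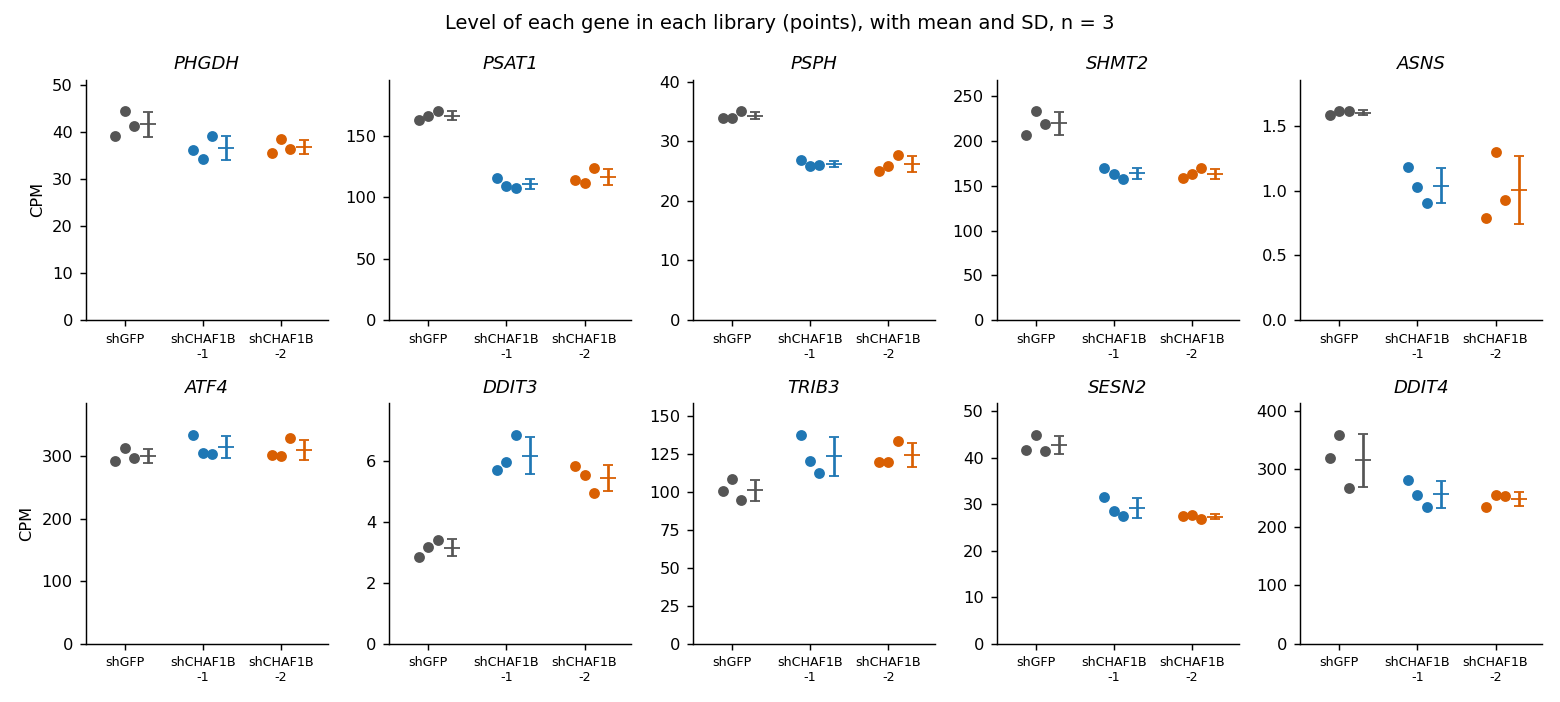
Level of each of the 10 genes in CPM on linear axes from 0, for the 3 libraries of each group (points) with the group mean and SD (bar and whiskers, n = 3). PSAT1, PSPH, SHMT2, ASNS and SESN2 have all 6 knockdown libraries below the shGFP libraries, DDIT3 and TRIB3 have them above, and PHGDH, ATF4 and DDIT4 overlap.

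PHGDH encodes phosphoglycerate dehydrogenase, which draws 3-phosphoglycerate out of glycolysis as the entry step of serine synthesis (ENSG00000092621.12, chromosome 1, 119648411 to 119744226, plus strand, GRCh38). Its libraries stood at 39.2, 44.4 and 41.3 CPM in shGFP, 36.2, 34.1 and 39.2 CPM with shCHAF1B-1 and 35.5, 38.4 and 36.4 CPM with shCHAF1B-2. The groups overlapped narrowly, since the highest shCHAF1B-1 library reached the lowest shGFP library. The log2 fold change was -0.19 (SE 0.0651, adjusted p = 0.024) and -0.18 (SE 0.0654, adjusted p = 0.035) in the edgeR test, the smallest change of the 9 genes called. Several libraries decided this call. Without shGFP replicate 2 the edgeR adjusted p was 0.11 for shCHAF1B-1, 0.15 for shCHAF1B-2 and 0.081 for their mean. For shCHAF1B-1 it was also lost without that hairpin's replicate 1 (0.054) or replicate 2 (0.13). For shCHAF1B-2 it was lost without shGFP replicate 3 (0.058) and without that hairpin's replicate 1 (0.11) or replicate 3 (0.072).

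PSAT1, the phosphoserine aminotransferase of the second step, had the smallest adjusted p of the 10 genes in the mean of both hairpins (ENSG00000135069.13, chromosome 9, 78297143 to 78330093, plus strand). It was at 163, 166 and 170.1 CPM in shGFP, 115, 109 and 107 CPM with shCHAF1B-1, and 114, 111 and 124 CPM with shCHAF1B-2. Every knockdown library lay well below every control. The level went from 166 ± 3.66 to 111 ± 4.32 and 116 ± 6.44 CPM (SD, n = 3). Against shGFP the log2 change was -0.59 (SE 0.0501, edgeR adjusted p = 3.9e-07) and -0.52 (SE 0.0501, edgeR adjusted p = 1.5e-06), a loss of 33.5% and 30.1% of the shGFP level.

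PSPH, the phosphatase that releases serine in the last step, also fell (ENSG00000146733.13, chromosome 7, 56011051 to 56051604, minus strand). Its shGFP libraries were at 33.9, 34.0 and 35.1 CPM, those of shCHAF1B-1 at 26.8, 25.8 and 26.1 CPM and those of shCHAF1B-2 at 25.1, 25.8 and 27.7 CPM. The groups did not overlap. The fitted log2 change was -0.39 for both hairpins (SE 0.0547 and 0.0551, edgeR adjusted p = 4.5e-05 and 4.8e-05). PSPH has an annotated pseudogene, PSPHP1, so its reads may be shared with a near copy.

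SHMT2, the mitochondrial hydroxymethyltransferase that splits serine into glycine and a one-carbon unit, fell with both hairpins (ENSG00000182199.10, chromosome 12, 57229327 to 57234935, plus strand). It stood at 207, 233 and 219 CPM in shGFP, 169.8, 164 and 158 CPM with shCHAF1B-1 and 159, 163 and 169.5 CPM with shCHAF1B-2. Here too every knockdown library was below the lowest control. Of its exon bases 9.51% lie in other genes as well. The log2 fold change was -0.42 (SE 0.0522) and -0.43 (SE 0.0523), with edgeR adjusted p-values of 1.3e-05 and 1.4e-05. Its cytosolic counterpart SHMT1 was at 45.2 ± 2.54 CPM in shGFP and 45.2 ± 4.23 and 45.3 ± 1.40 CPM in the knockdowns (SD, n = 3), and did not pass.

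ASNS, which makes asparagine from aspartate and glutamine, is the textbook target of ATF4 (ENSG00000070669.16, chromosome 7, 97852118 to 97872542, minus strand). Its row held few reads: 41, 45 and 46 counts in shGFP, 29, 32 and 23 with shCHAF1B-1 and 19, 33 and 22 with shCHAF1B-2. In CPM these were 1.58, 1.61 and 1.61, then 1.179, 1.03 and 0.907, then 0.790, 1.30 and 0.925. No knockdown library reached the lowest control, but the shCHAF1B-2 libraries were widely spread. Against shGFP the log2 change was -0.63 (SE 0.206, edgeR adjusted p = 0.020) and -0.67 (SE 0.210, edgeR adjusted p = 0.017). Over all libraries, 158 knockdown counts against 132 control counts gave a ratio of levels of 0.638 (95% exact counting interval 0.503 to 0.810, counting error only). The call was lost without shCHAF1B-1 replicate 2 (edgeR adjusted p = 0.058) or replicate 3, the library with B lymphocyte transcripts (-0.54, adjusted p = 0.062), for shCHAF1B-1, and without shCHAF1B-2 replicate 1 (-0.53, adjusted p = 0.072) for shCHAF1B-2. The DESeq2 Wald test missed the threshold for both hairpins (adjusted p = 0.080 and 0.068). For the mean of both hairpins the edgeR fall was -0.65 (SE 0.176, adjusted p = 0.0064). AC079781.5, the read-through gene over the same exons, had 33 counts in shGFP and 42 in the knockdowns, a ratio of 0.679 with an interval of 0.420 to 1.11, and did not pass.

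ATF4 itself was high and nearly level (ENSG00000128272.14, chromosome 22, 39519695 to 39522685, plus strand). It stood at 292, 314 and 296 CPM in shGFP, 334, 305 and 304 CPM with shCHAF1B-1 and 302, 299.8 and 329 CPM with shCHAF1B-2. The groups overlapped. The fitted log2 change was 0.06 (95% interval -0.052 to 0.18, edgeR adjusted p = 0.34) and 0.04 (95% interval -0.072 to 0.16, edgeR adjusted p = 0.52). ATF4 protein was not measured here.

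DDIT3, which encodes CHOP, a bZIP factor that ATF4 induces under lasting stress, rose most of the 10 (ENSG00000175197.12, chromosome 12, 57516588 to 57521737, minus strand). It was at 2.85, 3.19 and 3.40 CPM in shGFP, 5.69, 5.96 and 6.86 CPM with shCHAF1B-1 and 5.82, 5.53 and 4.96 CPM with shCHAF1B-2. Even the lowest knockdown library was above the highest control. The log2 fold change was 0.97 (SE 0.120, edgeR adjusted p = 1.4e-05) and 0.79 (SE 0.122, edgeR adjusted p = 1.1e-04), a 1.96-fold and a 1.72-fold level. MARS, the opposite-strand neighbour whose exons overlap DDIT3, did not pass in the mean of both hairpins (log2 fold change 0.02, SE 0.0391), nor did MBD6, which overlaps it as well (-0.08, SE 0.0517).

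TRIB3, a pseudokinase induced by ATF4 and CHOP that restrains AKT and feeds back on ATF4, also rose, by less (ENSG00000101255.10, chromosome 20, 362835 to 397559, plus strand). Its libraries stood at 100.2, 108 and 94.5 CPM in shGFP, 137, 120.2 and 113 CPM with shCHAF1B-1 and 119, 119.7 and 133 CPM with shCHAF1B-2. The groups did not overlap, though the lowest knockdown library was close to the highest control. Against shGFP the log2 change was 0.29 (SE 0.0744, edgeR adjusted p = 0.0050) and 0.30 (SE 0.0746, edgeR adjusted p = 0.0044). Without the library that held B lymphocyte transcripts it was 0.35 for shCHAF1B-1.

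SESN2, a leucine-binding inhibitor of mTORC1 that ATF4 and p53 both induce, went the other way (ENSG00000130766.4, chromosome 1, 28259527 to 28282491, plus strand). It was at 41.6, 45.0 and 41.5 CPM in shGFP, 31.5, 28.5 and 27.5 CPM with shCHAF1B-1 and 27.5, 27.7 and 26.8 CPM with shCHAF1B-2. All knockdown libraries lay far below the controls. The fitted log2 change was -0.55 (SE 0.0609, edgeR adjusted p = 4.9e-06) and -0.64 (SE 0.0617, edgeR adjusted p = 1.3e-06).

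DDIT4, which encodes REDD1, an inhibitor of mTORC1 induced by ATF4, hypoxia and glucocorticoids, was the most variable gene in the controls (ENSG00000168209.4, chromosome 10, 72273920 to 72276036, plus strand). The culture medium contained the glucocorticoid hydrocortisone in all groups. DDIT4 stood at 319, 359 and 267 CPM in shGFP, 280.3, 255 and 235 CPM with shCHAF1B-1 and 234, 255 and 254 CPM with shCHAF1B-2. The lowest control library lay below the highest shCHAF1B-1 library. The log2 fold change was -0.29 (SE 0.0907, edgeR adjusted p = 0.014) and -0.35 (SE 0.0909, edgeR adjusted p = 0.0060). For shCHAF1B-1 the call was lost without shGFP replicate 2 (-0.19, adjusted p = 0.080) and without replicate 3 of that hairpin, the library with B lymphocyte transcripts (-0.23, adjusted p = 0.058).

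**Figure D2:**
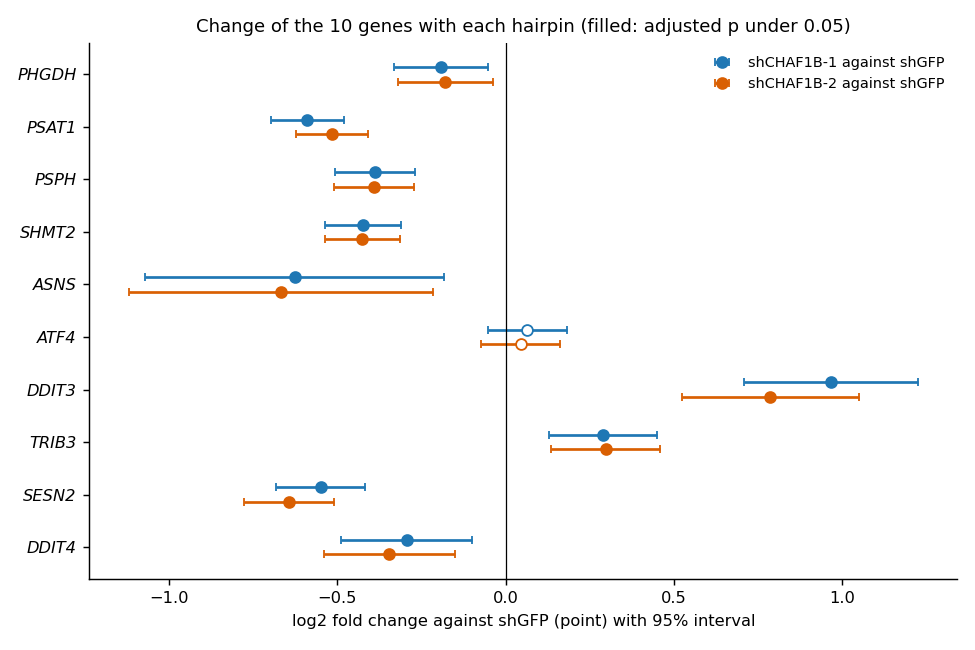
Log2 fold change of each of the 10 genes against shGFP with its 95% interval, for shCHAF1B-1 (blue) and shCHAF1B-2 (orange). Intervals were computed from the edgeR F value, and points are filled where the adjusted p was under 0.05. PHGDH, PSAT1, PSPH, SHMT2, ASNS, SESN2 and DDIT4 lie below 0 and DDIT3 and TRIB3 above it with both hairpins. ASNS has the widest intervals, and the intervals of ATF4 cross 0.

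Between the hairpins no gene of the 10 passed. The difference of shCHAF1B-2 minus shCHAF1B-1 ranged from -0.18 for DDIT3 (95% interval -0.43 to 0.065, edgeR adjusted p = 0.54) to 0.07 for PSAT1 (95% interval -0.036 to 0.18, edgeR adjusted p = 0.58). For SHMT2 the interval was -0.11 to 0.11, and for ASNS, the least precise, -0.52 to 0.44. Over all genes 0 of 16235 (0%) passed this edgeR comparison, 1800 had an unadjusted p under 0.05, and DESeq2 and limma-voom also called 0.

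By likeness over the 9 libraries (Pearson correlation of log2 CPM among 9415 genes of at least 10 CPM, given as a description since libraries share their group), ATF4 was nearest to PFN1 (0.954), PPP1R14B (0.948), FIS1 (0.946), CHMP4B (0.944) and JAGN1 (0.940). ASNS was nearest to ZNF362 (0.960), DIS3L2 (0.956), SUSD2 (0.949), NARF (0.947) and GRAMD4 (0.946). For ASNS the points share the group differences, while ATF4 did not pass with either hairpin and its groups overlapped.

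Of the other ATF4 targets and amino acid response genes, 30 of 32 were tested; in the mean of both hairpins 10 rose, 10 fell and 10 did not pass (median 0.02, beside -0.014 over all genes). These counts lie near the shares over all genes in that comparison (29.2% up and 27.7% down). The same shares are given beside the list counts that follow. The genes that fell included SLC7A5, the light chain of the large neutral amino acid transporter LAT1 (-1.36, SE 0.0508), and SLC3A2, its heavy chain (-1.24, SE 0.0454). ALDH1L2, a mitochondrial folate dehydrogenase, fell from 130 ± 3.72 to 86.9 ± 3.87 and 88.6 ± 4.98 CPM (SD, n = 3; -0.57, SE 0.0445). VEGFA, an angiogenic factor, rose from 99.4 ± 3.01 to 199 ± 1.94 and 185 ± 16.5 CPM (0.95, SE 0.0528). CHAC1, a glutathione-degrading enzyme that follows CHOP and ATF4 closely, rose at a low level from 1.61 ± 0.316 to 2.503 ± 0.138 and 2.43 ± 0.404 CPM (0.61, SE 0.160), and PPP1R15A, or GADD34, which directs phosphatase to eIF2, rose from 17.1 ± 0.581 to 29.8 ± 1.84 and 26.2 ± 0.561 CPM (0.71, SE 0.0556). 

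**Figure D3:**
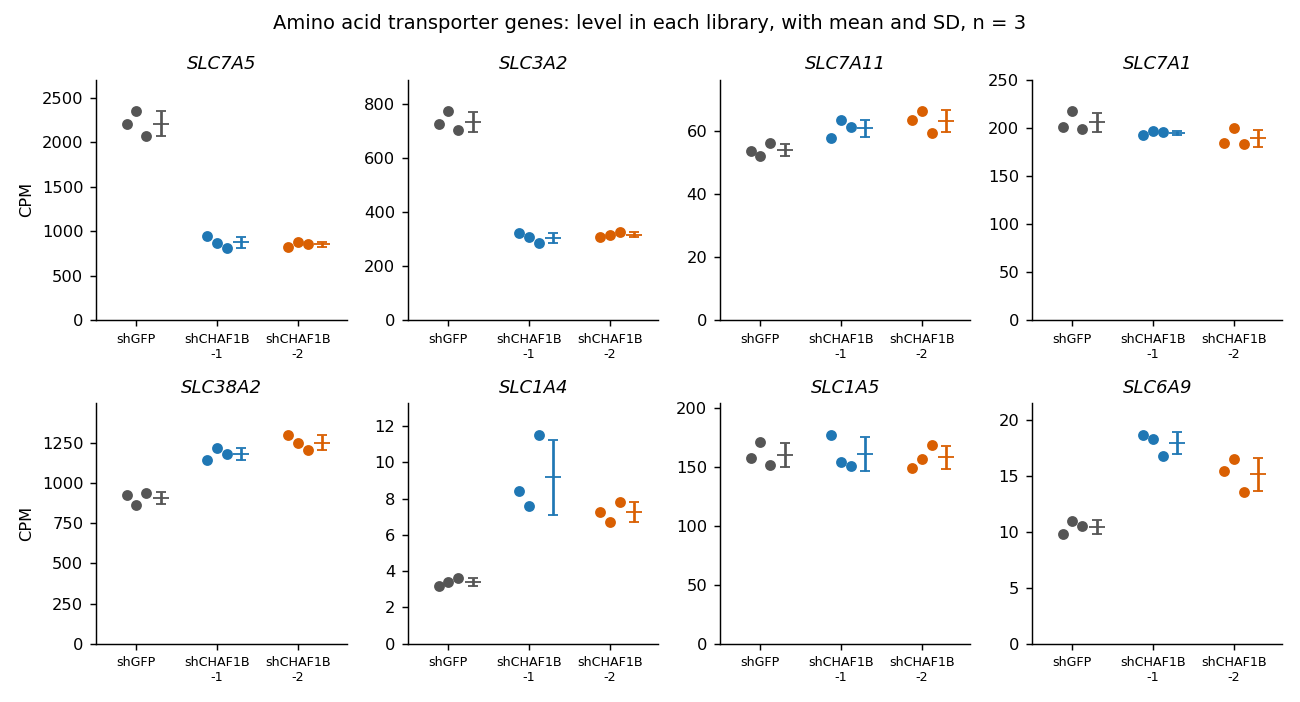
Level in CPM on linear axes from 0 of 8 amino acid transporter genes from the list of other ATF4 targets, for the 3 libraries of each group (points) with mean and SD (n = 3). SLC7A5 and SLC3A2 have all knockdown libraries below the controls, SLC7A11, SLC38A2, SLC1A4 and SLC6A9 have them above, and SLC7A1 and SLC1A5 overlap.

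The 8 amino acid transporter genes in that list split as well: 4 rose, 2 fell and 2 did not pass. Over all genes the shares were 29.2% up and 27.7% down. SLC7A5 stood at 2205, 2353 and 2076 CPM in shGFP, 941, 867 and 813 CPM with shCHAF1B-1 and 827, 876 and 853 CPM with shCHAF1B-2. SLC3A2 went from 724, 773 and 703 CPM to 321, 309 and 285 CPM and to 307, 315 and 325 CPM. For both chains of LAT1 every knockdown library was below every control. SLC1A4, the carrier of serine, alanine and threonine, rose from 3.20, 3.40 and 3.61 CPM to 8.42, 7.60 and 11.5 CPM and to 7.28, 6.71 and 7.82 CPM (1.26, SE 0.135). The highest of these was the library with B lymphocyte transcripts. SLC6A9, a glycine transporter, rose by 0.66 (SE 0.0772), SLC38A2, or SNAT2, a carrier of small neutral amino acids, by 0.42 (SE 0.0435), and SLC7A11, the cystine-glutamate exchanger, by 0.20 (SE 0.0488). SLC7A1, a cationic carrier, and SLC1A5, a glutamine carrier, had values of -0.10 (SE 0.0428) and -0.0076 (SE 0.0591).

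Of the 9 tested genes of that list that hold the C/EBP-ATF core shown above, 3 rose (SLC1A4, CEBPG and CHAC1), 3 fell (SLC3A2, JDP2 and MTHFD1L) and 3 did not pass (ATF3, SLC7A1 and SLC1A5), beside 29.2% up and 27.7% down over all genes. ASNS, which holds it too, fell. In the other lists described here the core was also found in PPP1R15B, HERPUD1 and PLK3, which rose, and in TSC2, which did not pass. MTHFD1L, the mitochondrial formate-producing enzyme, fell by 0.42 (SE 0.0431), and ATF3 had a value of -0.22 (SE 0.158).

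Among 25 tested genes of 28 in the wider serine, glycine and one-carbon list, 14 fell, 5 rose and 6 did not pass (median -0.25). The shares over all genes were 27.7% down and 29.2% up. Of the 28 genes, 7 are also in the ATF4 target list. AHCY, which clears S-adenosylhomocysteine, fell from 458 ± 23.6 to 242 ± 11.98 and 252 ± 17.2 CPM (-0.89, SE 0.0495). TYMS, thymidylate synthase, which is also an S phase gene, fell by 0.70 (SE 0.0454). The genes that rose included SFXN3, a mitochondrial serine carrier (1.30, SE 0.0462). MTHFD2, the mitochondrial folate enzyme next to SHMT2 in the pathway and an ATF4 target, stood at 154 ± 6.27 CPM in shGFP and 147 ± 3.18 and 163 ± 9.95 CPM in the knockdowns (SD, n = 3) and did not pass (0.0089, SE 0.0448).

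Upstream of ATF4, among 16 kinases, subunits and phosphatase subunits that act on eIF2, 4 rose, 6 fell and 6 did not pass (median -0.07). Over all genes, 29.2% were called up and 27.7% down. The largest changes were in the regulatory subunits of eIF2 phosphatase: PPP1R15B rose from 138 ± 4.75 to 245 ± 4.73 and 242 ± 6.91 CPM (0.82, SE 0.0396), beside PPP1R15A above. The other risers were EIF2B2 (0.20, SE 0.0452) and EIF2AK4, or GCN2, the sensor of uncharged tRNA (0.11, SE 0.0352). Of the other eIF2 kinases, EIF2AK2, or PKR, fell by 0.21 (SE 0.0464), while EIF2AK3, or PERK, at -0.18 (SE 0.0861) and EIF2AK1, or HRI, at -0.07 (SE 0.0408) did not pass. EIF2S3, a subunit of eIF2, fell by 0.32 (SE 0.0416). The EIF2AK4 call was lost with upper-quartile scaling (edgeR adjusted p = 0.066) and without shGFP replicate 3 (0.072) or shCHAF1B-2 replicate 1 (0.051).

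Of 15 bZIP factors that can pair with ATF4 or CHOP, 5 rose, 3 fell and 7 did not pass (median -0.0024). The shares over all genes, 29.2% up and 27.7% down, stand beside this count and that of the synthetases below. FOSL1 (1.19, SE 0.0595), FOS (0.84, SE 0.0517), JUNB (0.80, SE 0.119) and JUN, all AP-1 subunits, rose, as did CEBPG (0.46, SE 0.0402), a frequent dimer partner of ATF4. JDP2 (-0.70, SE 0.106), ATF5 (-0.34, SE 0.0515) and CEBPB (-0.36, SE 0.116) fell. The CEBPB call ended without shGFP replicate 2 (edgeR adjusted p = 0.12) or replicate 1 (0.057) and with DESeq2 (0.064). Of the 20 cytosolic aminoacyl-tRNA synthetases, many of them ATF4 targets, 10 fell, 5 rose and 5 did not pass, all by small amounts (median -0.06). DARS (-0.33, SE 0.0417), KARS (-0.27, SE 0.0401) and EPRS (-0.26, SE 0.0364) fell, and GARS (0.27, SE 0.0399), WARS (0.28, SE 0.0443), CARS (0.24, SE 0.0418), SARS (0.20, SE 0.0433) and HARS (0.13, SE 0.0403) rose. RARS, TARS, MARS, NARS and YARS did not pass. The HARS call was lost without shGFP replicate 1 (edgeR adjusted p = 0.056).

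A further list held genes of the ATF6 and XBP1 branches of the unfolded protein response, the arms of the endoplasmic reticulum stress response that do not run through ATF4. Of 21 tested genes, 15 rose, 0 fell and 6 did not pass (median 0.28), beside 29.2% up and 27.7% down over all genes. DNAJB9, a co-chaperone, rose from 19.0 ± 1.07 to 34.1 ± 1.39 and 36.9 ± 3.22 CPM (0.90, SE 0.0645), HERPUD1, a part of the degradation machinery, by 0.84 (SE 0.0469), HSPA5, the chaperone BiP, by 0.75 (SE 0.0432) and EDEM1 by 0.72 (SE 0.0423). HSPA5 was at 521 ± 10.9 CPM in shGFP and 852 ± 22.7 and 896 ± 46.9 CPM in the knockdowns (SD, n = 3). DDIT3 is known as a target of this response too, and whether this bears on its rise was not tested. The endoplasmic reticulum stress response element of these branches, searched on both strands, was found in the windows of 7 of 20 list genes, in 0 of the 8 genes with a window among the 10, and in 0.152% of tested genes with a window.

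**Figure D4:**
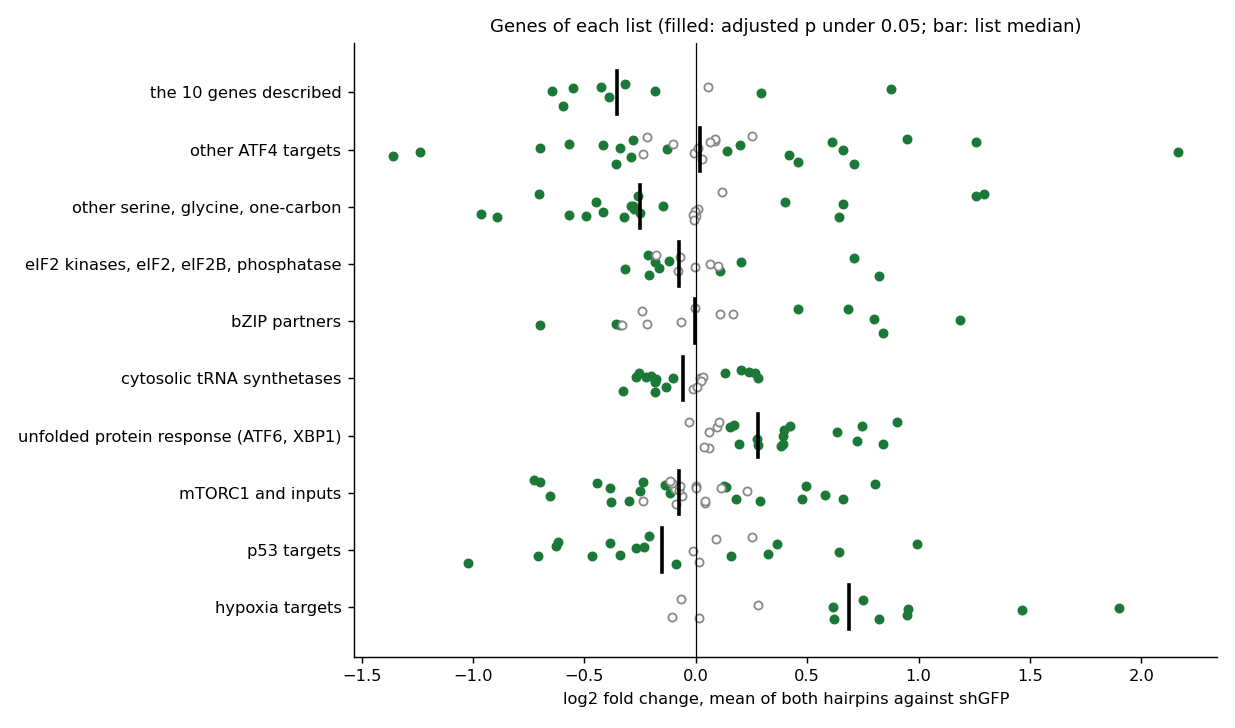
Log2 fold change in the mean of both hairpins against shGFP for the tested genes of each list (points, filled where the adjusted p was under 0.05) with the list median (bar). The medians lie at -0.35 for the 10 genes described, 0.02 for other ATF4 targets, -0.25 for one-carbon genes and 0.28 for the unfolded protein response; some genes stand in more than 1 list.

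SESN2 and DDIT4 act on mTORC1, the kinase complex that couples growth to amino acids. Of 34 tested genes of mTORC1 and its inputs, 9 rose, 11 fell and 14 did not pass (median -0.07), near the 29.2% up and 27.7% down over all genes. The count of falling genes went to 7 without shGFP replicate 1 and without shCHAF1B-1 replicate 2. The other sestrins fell along with SESN2: SESN1 by 0.39 (SE 0.0469) and SESN3 by 0.73 (SE 0.0833), so that all 3 sestrin genes were lower. NPRL3, a subunit of the GATOR1 complex that inhibits mTORC1, fell by 0.70 (SE 0.0532) and LAMTOR1, the lysosomal anchor of the Rag complex, by 0.65 (SE 0.0583). SLC38A9, a lysosomal arginine sensor, rose by 0.58 (SE 0.0586), and RHEB, the activator of mTORC1, by 0.48 (SE 0.0526).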

How the data were processed

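The deposited file holds the authors' raw counts for each gene and library, as whole numbers without normalization. The submitters' processing notes list, without roles, DESeq2 1.18.1 besides HTSeq 0.8.0 and STAR 2.5.3a; hg38 and mm10 are both listed. Identifiers were looked up in GENCODE release 29 on GRCh38, where 26149 matched (25293 in the same version) and 37 did not.

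Low genes were removed by filterByExpr in edgeR 4.0.16 under R 4.3.3 (count 10, total 15, share 0.7), leaving 16235. TMM-scaled counts of the 9 libraries entered a quasi-likelihood fit with a coefficient for each group (BCV 6.24%). Values of lists refer to the mean of both hairpins against shGFP. The steps were tested on simulated counts for the shCHAF1B-1 comparison, in which far fewer genes changed than were called in the data. That does not show how the steps behave where so many genes move. Alternatives were RLE or upper-quartile scaling, DESeq2 1.42.0, limma-voom (limma 3.58.1), another filter (1 CPM in 3 libraries) or none, a fit of the compared groups alone, a block for replicate number, a threshold of 0.01, and leaving out each library. Python 3.11.15, pandas 2.3.3 and SciPy 1.17.1 gave correlations (on log2 of CPM plus 0.01), intervals and motif matches, and matplotlib 3.10.9 the figures. Promoter windows came from RefSeq.

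All 10 genes are named, with up to 4 genes of smallest adjusted p from each list and those behind counts of 5 or fewer; some genes of the one-carbon list are not reported here by name. The transporters, the genes shown with a motif, and SHMT1, MTHFD2, CHAC1, PPP1R15A among ATF4 targets, EIF2AK1, EIF2AK3, SESN1 and SESN3 were named by role after their values were seen, as were the motifs. The 10 genes, lists and tests were chosen with earlier results of these data known.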

Additional observations from a re-analysis of the deposited data

How the results depend on the processing

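Under 18 alternatives, 9 of which left out 1 library (17 for the mean of both hairpins and the lists, since the fit of only the groups compared gives no value there), the log2 fold changes of the 10 genes against shGFP changed sign in 0 cases over 30 results, and calls were lost in 6 results, those of ASNS, PHGDH and DDIT4 given above; 0 calls were gained. With an adjusted p under 0.01 the number of the 10 genes called down with shCHAF1B-1 went from 7 to 4. That setting tightens the threshold alone. With DESeq2 PHGDH missed the threshold for shCHAF1B-2 (adjusted p = 0.0501). Differences between the hairpins near 0 changed sign: SHMT2 stood at 7.9e-04 with RLE scaling and with DESeq2 and at 0.0015 with only the groups compared, where PSPH stood at 2.1e-04. With single libraries left out, these differences ran from -0.063 to 0.027 for ATF4, -0.27 to 0.10 for ASNS, -0.035 to 0.066 for PHGDH, -0.043 to 0.027 for PSPH, -0.028 to 0.026 for SHMT2, -0.11 to 0.017 for DDIT4 and -0.052 to 0.093 for TRIB3. The replicate number as a block changed no call of the 10 genes (2 up and 7 down in the mean of both hairpins) and gave 4599 genes up and 4314 down in place of 4733 and 4498. Libraries of the same number did not deviate together (correlations of deviations from -0.14 to 0.10). Most libraries correlated best with a library of another number, such as shGFP replicate 2 with shCHAF1B-1 replicate 1 (0.22). Of 57 named list genes, 0 changed sign and 3 lost a call (EIF2AK4, CEBPB and HARS). The number of hypoxia targets called down went from 0 to 1 without shGFP replicate 2. Depth limits ASNS most, at 19 to 46 counts per library.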

Other observations

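SESN2 and DDIT4 are also known targets of p53 and, for DDIT4, of hypoxia, so the lists of those responses are given beside them. Of 20 p53 targets, 11 fell, 5 rose and 4 did not pass in the mean of both hairpins (median -0.15). The shares over all genes were 29.2% up and 27.7% down, for this list and the hypoxia list below. CCNG1, a cyclin that p53 induces, fell from 393 ± 12.4 to 181 ± 4.84 and 207 ± 7.49 CPM (SD, n = 3; -1.02, SE 0.0382), TP53I3 by 0.71 (SE 0.0405) and the death gene BAX by 0.63 (SE 0.0489). The 5 that rose were TP53INP1 (0.99, SE 0.0640), the cell cycle inhibitor CDKN1A, FAS, PLK3 and TNFRSF10B, and the 4 that did not pass were GDF15, PHLDA3, AEN and POLK. Of 12 hypoxia targets, 8 rose, 0 fell and 4 did not pass (median 0.69); those not passing were PDK1, ANKRD37, ADM and LDHA. NDRG1 rose from 63.1 ± 2.62 to 238 ± 12.9 and 233 ± 4.37 CPM (1.90, SE 0.0478), BNIP3, a mitophagy receptor, by 0.82 (SE 0.0483), and SLC2A1, the glucose transporter GLUT1, by 0.75 (SE 0.0494). DDIT4 fell while these rose. VEGFA stands in both the hypoxia and the ATF4 target list.

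Pseudogenes of ATF4 had their own rows: ATF4P3 held 6 to 18 counts per library and ATF4P4 12 to 36, beside 7257 to 9524 counts for ATF4, and neither passed.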
